A study of Mus musculus with 8 samples.

Results

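Arid3a, Gse1 and Spsb1 are 3 genes for a DNA-binding protein, a chromatin co-repressor subunit and a ubiquitin ligase receptor, described here in mouse muscle stem cells given a short pulse of a bone morphogenetic protein (BMP). They are 3 of the 55223 loci in the deposited expression table and were picked by symbol because their RNA was higher after BMP. The stimulated minus vehicle changes of these genes are therefore a description and carry no test. All 3 had a mean of at least 0.5 TPM (a share of the library, corrected for transcript length) and so were among the 16908 loci tested. The donors were wild-type C57BL/6J females, 6 to 8 weeks old. All cells grew for 2 days on Matrigel and then spent 6 h without serum, with BMPR-IA-Fc, a soluble form of the BMP receptor ALK3, at 200 ng/ml to take up BMPs in the medium. The BMP4 group received 100 ng/ml BMP4 for 1 h, and its controls, called vehicle_a, received 4 mM HCl with 0.1% BSA, both in isolations 48 and 54. The BMP6 group received 100 ng/ml BMP6 for 1 h, and its controls, called vehicle_b, received the same vehicle, both in isolations 75 and 77. Each group holds 2 libraries, replicate 1 from the lower isolation number and replicate 2 from the higher, and BMP4 and BMP6 were never added to cells of the same isolation.

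BMPs bind pairs of type I and type II receptors, which phosphorylate SMAD1, SMAD5 and SMAD9; these join SMAD4, enter the nucleus and bind GC-rich and GTCT-containing DNA. The Id genes are among the best known early targets, and in muscle stem cells BMP signalling is known to favour proliferation over differentiation. Arid3a (also called Bright) binds AT-rich DNA through its ARID domain, is best known for immunoglobulin heavy chain transcription in B cells and is an E2F1 partner in human cells. Gse1 encodes a coiled-coil subunit of the CoREST-HDAC complex, which removes acetyl and methyl groups from histones through HDAC1, HDAC2 and the demethylase KDM1A. Spsb1 encodes a SPRY-domain and SOCS-box protein, the substrate receptor of an ECS ubiquitin ligase built on Cullin 5, Elongin B and Elongin C, with inducible nitric oxide synthase and the type II TGF-beta receptor among its known substrates.

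The genes were located on GRCm39 by the deposited files. Arid3a lies at chr10:79762877-79790852 on the plus strand and overlaps no other locus of the table. Gse1 lies at chr8:121215186-121308129 on the plus strand and overlaps 4 other loci. Spsb1 lies at chr4:149980740-150039500 on the minus strand and overlaps 1 other locus, Gm13070, which reached at most 0.504 TPM. RefSeq promoter windows, from 250 bases before to 50 bases after a start site, were matched by symbol for 2 of the 3 genes, on the build GRCm38.p6, whose coordinates differ from those above. Gse1 has 3 windows and Spsb1 has 1. Printed are the Gse1 windows at the starts of the short first exons, which are those that hold GGCGCC, and the Spsb1 window. The Gse1 window not printed lies near ENSMUST00000034279, a form that also shifts between libraries. It holds most Gse1 TPM in every library but BMP4 replicate 1 (0.756%) and vehicle_a replicate 2 (49.8%). Capitals mark GGCGCC, the GC-rich SMAD element, and all are written 5' to 3' on the gene's strand.
Gse1, chr8:120535607-120535906, plus strand: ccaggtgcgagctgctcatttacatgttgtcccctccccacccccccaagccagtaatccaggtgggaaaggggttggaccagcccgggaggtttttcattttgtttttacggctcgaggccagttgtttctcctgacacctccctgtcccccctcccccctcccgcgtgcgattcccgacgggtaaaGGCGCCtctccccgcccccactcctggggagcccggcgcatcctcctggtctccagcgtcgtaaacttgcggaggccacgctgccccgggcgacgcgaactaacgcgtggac
Gse1, chr8:120537159-120537458, plus strand: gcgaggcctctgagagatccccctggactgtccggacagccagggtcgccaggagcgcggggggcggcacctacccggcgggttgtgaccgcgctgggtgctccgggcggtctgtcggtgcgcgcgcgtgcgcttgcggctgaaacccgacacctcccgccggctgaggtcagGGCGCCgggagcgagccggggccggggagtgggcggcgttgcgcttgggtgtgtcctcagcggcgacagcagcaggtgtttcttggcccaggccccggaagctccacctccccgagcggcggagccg
Spsb1, chr4:149954957-149955256, minus strand: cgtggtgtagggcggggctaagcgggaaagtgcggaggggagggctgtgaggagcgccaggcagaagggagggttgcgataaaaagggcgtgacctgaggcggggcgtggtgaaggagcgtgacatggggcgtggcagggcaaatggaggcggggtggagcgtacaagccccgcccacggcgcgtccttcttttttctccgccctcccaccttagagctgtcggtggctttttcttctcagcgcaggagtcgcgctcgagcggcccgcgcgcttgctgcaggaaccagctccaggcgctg

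Both strands of each window were searched for GGCGCC, the SMAD box GTCT, the RBPJ core TGGGAA and the cyclic AMP response element TGACGTCA, none of which overlap another here. The first printed Gse1 window has its start site at the annotated start of ENSMUST00000120493 and held GGCGCC at base -62, GTCT at base -14 and TGGGAA at base -187 from the start. The second, with its start 20 bases before that of ENSMUST00000118136, held GGCGCC at base -77 and GTCT at base -141. The Gse1 window not printed, near the long ENSMUST00000034279 form at chr8:120488616-120488915, held no GGCGCC and 2 copies of GTCT. The Spsb1 window, nearest to the annotated start of ENSMUST00000135896, held none of the 4 motifs, GTCT included, although GTCT stands in 88.0% of all 32851 windows of this length. GGCGCC stands in 11.9% of them, TGGGAA in 25.6% and TGACGTCA in 1.79%. The GC content was 64.3% and 74.7% in the printed Gse1 windows and 66.3% in the Spsb1 window, against a median of 52.7% over all windows. A match is a stretch of letters and not a measured binding site.

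Arid3a, the DNA-binding member, was the scarcest of the 3 in every library and stood under 1 TPM in all vehicle libraries. It had 4.11 and 4.87 TPM in BMP4 libraries, against 0.834 and 0.484 TPM in vehicle_a libraries. It had 1.78 and 2.37 TPM in BMP6 libraries, against 0.240 and 0.292 TPM in vehicle_b libraries. All 4 stimulated libraries lay above all 4 vehicle libraries. The gene was chosen by this rise and the share of all loci that separate so was not counted, so nothing is read from it. The level in every isolation was at least 4.93 times that of its vehicle. It was 10.1 times in isolation 54, 7.41 times in isolation 75 and 8.12 times in isolation 77. On the log2(TPM + 0.5) scale, which understates the change of so low a gene, the mean difference was 2.12 for BMP4 and 1.74 for BMP6, each with an SE of 0.22. These TPM rest on an estimated 840 and 963 reads in BMP4 libraries, 174 and 97 in vehicle_a, 323 and 443 in BMP6, and 49 and 55 in vehicle_b.

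Gse1, the co-repressor subunit, was the most abundant member per unit length in every library. It had 56.6 and 65.5 TPM in BMP4 libraries, against 30.5 and 28.0 TPM in vehicle_a libraries. It had 33.5 and 34.1 TPM in BMP6 libraries, against 11.9 and 8.39 TPM in vehicle_b libraries. The groups did not overlap within either experiment, but the share of all loci that separate so was not counted. The BMP6 libraries stood only just above the vehicle_a libraries of the other experiment. Its level was 1.86 and 2.34 times that of the vehicle in isolations 48 and 54 after BMP4, and 2.83 and 4.06 times in isolations 75 and 77 after BMP6. The mean log2 difference was 1.05 for BMP4 and 1.71 for BMP6, each with an SE of 0.17.

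Spsb1, the ligase receptor, was the member whose changes after the ligands lay furthest apart. It had 20.1 and 30.9 TPM in BMP4 libraries, against 3.05 and 6.65 TPM in vehicle_a libraries. It had 6.04 and 7.93 TPM in BMP6 libraries, against 3.74 and 4.21 TPM in vehicle_b libraries. Both BMP4 libraries stood above the 6 others, whereas the BMP6 libraries overlapped the range of vehicle_a. How many of all loci are placed like this was not counted. Its level was 6.59 and 4.64 times that of the vehicle in isolations 48 and 54, and 1.61 and 1.88 times in isolations 75 and 77. The mean log2 difference was 2.33 for BMP4 and 0.73 for BMP6, with an SE of 0.36, and of 0.12 when the isolation was kept as a block. Both libraries of isolation 54 were higher than those of isolation 48.

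**Figure D1:**
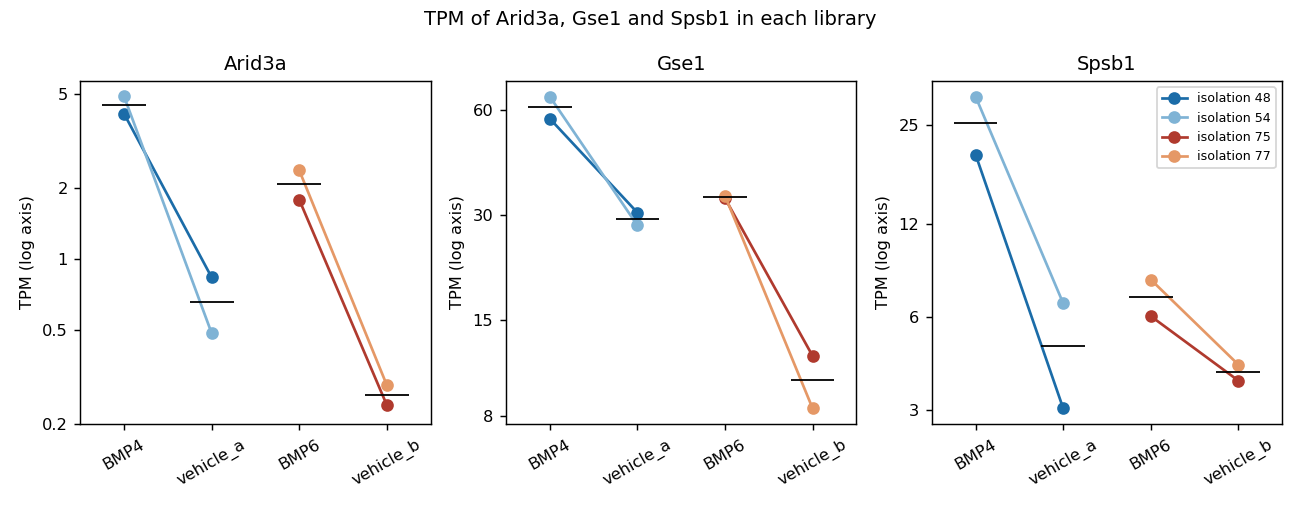
TPM of Arid3a, Gse1 and Spsb1 in the 8 libraries on log axes, 1 point a library, with lines joining the stimulated and vehicle library of an isolation and black bars at the group means of 2 libraries. Every line runs down to the vehicle; Spsb1 falls least in isolations 75 and 77, and the Gse1 vehicle libraries of the 2 experiments lie apart.

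Ordered by level, the groups ran BMP4, BMP6, vehicle_a and vehicle_b for each of the 3 genes. The means were 4.49 ± 0.54, 2.07 ± 0.42, 0.659 ± 0.248 and 0.266 ± 0.036 TPM for Arid3a (SD, n = 2 each), with no overlap between neighbours in that order. For Gse1 they were 61.0 ± 6.3, 33.8 ± 0.4, 29.2 ± 1.7 and 10.1 ± 2.4 TPM (SD, n = 2 each), again without overlap. For Spsb1 they were 25.5 ± 7.6, 6.99 ± 1.33, 4.85 ± 2.55 and 3.98 ± 0.33 TPM (SD, n = 2 each), and there BMP6 overlapped vehicle_a, and vehicle_a overlapped vehicle_b. The order sets the experiments side by side, and ligand and isolation cannot be told apart in it. The shares of all loci that separate or overlap in these ways were not counted, so nothing is read from either.

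The difference between the responses was tested as the BMP6 change minus the BMP4 change with limma on all 16908 loci; since it is built from the changes that chose the genes, it bears only on how the ligands differ. For Spsb1 it was -1.60 (SE 0.51, adjusted p = 1.00), and with the isolation as a block the SE was 0.17 and the adjusted p 0.229. For Gse1 it had the other sign, 0.66 (SE 0.25, adjusted p = 1.00; block SE 0.20, adjusted p = 0.331). For Arid3a it was -0.38 (SE 0.31, and 0.28 with the block). That is given without a test, since Arid3a passed the filter on low values through its stimulated libraries. Neither Spsb1 nor Gse1 passed an adjusted p of 0.05, so no difference between the ligands was shown for these genes, nor that the ligands act alike. Limma called 0 of the loci, 0%, in this contrast with and without the block, although 244 had an unadjusted p under 0.05 without it and 2251 with it. Within isolations the Spsb1 log2 change was 2.54 and 2.13 after BMP4 and 0.62 and 0.84 after BMP6. The changes of Gse1 were 0.88 and 1.21 after BMP4 and 1.46 and 1.96 after BMP6. Those of Arid3a were 1.79 and 2.45 after BMP4 and 1.62 and 1.86 after BMP6. With 0.1 or 2 added to the TPM in place of 0.5, the Arid3a difference was -0.07 or -0.45. The share of all loci spaced as far apart between ligands was not counted, so nothing is read from the spacing of these values.

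**Figure D2:**
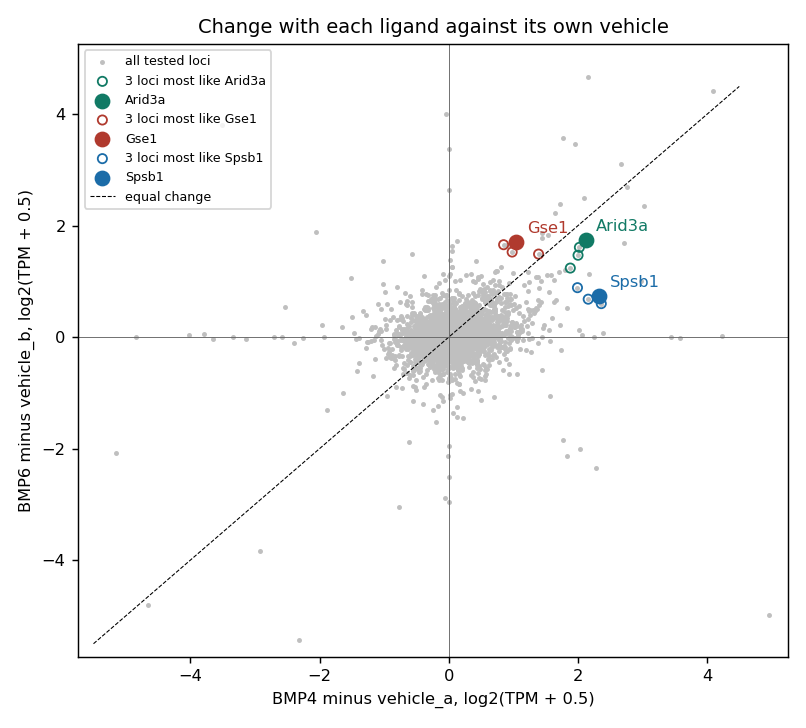
Mean log2(TPM + 0.5) change after BMP6 (vertical) against that after BMP4 (horizontal), each over its own vehicle, for the 16908 tested loci (grey), the 3 genes (filled) and the 3 loci most like each in their changes within isolations (open). Spsb1 at 2.33 and 0.73 lies below the dashed line of equal change and Gse1 at 1.05 and 1.71 above it.

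Without a ligand, Gse1 was unequal between the vehicle-treated cultures of the experiments. It averaged 10.1 ± 2.4 TPM in vehicle_b libraries and 29.2 ± 1.7 TPM in vehicle_a libraries (SD, n = 2 each), a log2 difference of -1.50 (SE 0.17, limma adjusted p = 0.0072). The vehicle values are also part of the changes that chose the genes, and a low vehicle level widens such a change. Spsb1 differed by -0.17 (SE 0.36, adjusted p = 0.731) and did not pass. Arid3a passed the filter on low values through its stimulated libraries, so its vehicle levels, 0.266 ± 0.036 TPM in vehicle_b and 0.659 ± 0.248 TPM in vehicle_a (SD, n = 2 each), are given without a test. Of all tested loci 27.2% were called in this contrast and 16.6% were lower in vehicle_b, so the Gse1 call is one of many. That count of 4602 loci was 12 without vehicle_b replicate 1, 5 without vehicle_b replicate 2, 420 without vehicle_a replicate 2, 2045 without BMP6 replicate 1 and 2086 without BMP6 replicate 2. The Gse1 call itself was lost without vehicle_b replicate 1 (-1.74, adjusted p = 0.0524) and without vehicle_b replicate 2 (-1.27, adjusted p = 0.0555), and the Spsb1 difference turned to 0.33 without vehicle_a replicate 2. The 7 differentiating muscle markers, summed, stood at 461 to 626 TPM in vehicle_b and at 4396 to 13352 TPM in vehicle_a, and their part in the Gse1 difference was not tested. In such bulk libraries fewer cells of a type and less RNA per cell cannot be told apart.

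Within an isolation the same sum was closer between ligand and vehicle. It was 3982 TPM with BMP4 and 4396 TPM with vehicle in isolation 48, and 12939 TPM with BMP4 and 13352 TPM with vehicle in isolation 54. It was 581 TPM with BMP6 and 461 TPM with vehicle in isolation 75, and 618 TPM with BMP6 and 626 TPM with vehicle in isolation 77. All 8 muscle stem cell markers were above 0.5 TPM in every group, with sums of 1123 to 1297 TPM in BMP4, 1176 to 1470 TPM in vehicle_a, 956 to 1054 TPM in BMP6 and 836 to 948 TPM in vehicle_b. Single markers, chosen after they were seen, differed between ligand and vehicle within these sums, in both directions. Myod1 had 570 and 631 TPM in BMP6 libraries, against 422 and 481 TPM in vehicle_b. Pax7 had 12.3 and 12.6 TPM in BMP4 libraries, against 16.9 and 16.7 TPM in vehicle_a. Cdh15 had 143 and 193 against 185 and 236 TPM there, and Chrdl2 1.40 and 2.00 against 1.19 and 0.860 TPM. After BMP6 the sign differed between isolations for Pax7, Cdh15 and Chrdl2, as for Myod1 after BMP4. Myf5, a myogenic regulator, had 23.0 and 16.6 TPM in BMP4 libraries, against 52.3 and 38.2 TPM in vehicle_a, and 58.6 and 52.3 TPM in BMP6 libraries, against 93.95 and 86.4 TPM in vehicle_b. Sdc4, a syndecan gene, had 25.1 and 10.7 TPM in BMP4 libraries, against 8.65 and 4.69 TPM in vehicle_a, and 54.6 and 67.2 TPM in BMP6 libraries, against 55.2 and 68.2 TPM in vehicle_b. The immune list had Ptprc, the leukocyte surface phosphatase, at 0 in every library but Itgam, the integrin alpha M gene, at 10.9 to 17.1 TPM and Cd68 at 0.919 to 2.01 TPM, and summed to between 11.96 and 18.6 TPM, and the endothelial list had Emcn at 0 and summed to at most 1.27 TPM. The 6 fibroblast markers summed to 63.9 to 138 TPM in BMP4 and 71.1 to 163 TPM in vehicle_a, and to 19.2 to 21.7 TPM in BMP6 and 20.2 to 22.5 TPM in vehicle_b. The 5 pericyte or smooth muscle markers summed to 7.52 to 26.4 TPM in BMP4 and 8.02 to 24.6 TPM in vehicle_a, and to at most 0.676 TPM in BMP6 and 1.64 TPM in vehicle_b. Col3a1 and Col1a1 made up nearly all of the fibroblast sums, while Pdgfra, Dcn, Lum and Dpt had at most 0.512 TPM in any library. Abcc9, Pdgfrb and Myh11 made up most of the pericyte or smooth muscle sums in BMP4 and vehicle_a. Rgs5 had at most 0.294 TPM and Kcnj8 at most 0.082 TPM in any library. The cells behind these sums, and their part in the members' changes, were not tested. The 4 Schwann cell markers summed to 6.39 to 9.61 TPM in BMP4, 6.49 to 11.7 TPM in vehicle_a, 4.44 to 8.25 TPM in BMP6 and 5.20 to 8.38 TPM in vehicle_b, and the 3 adipocyte markers to at most 0.019 TPM. Libraries held an estimated 48012828 to 58002740 reads.

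Read coverage was higher along the whole body of Gse1 in stimulated cells. Its annotated transcripts share 15 exons, and the log2 ratio of depth-scaled coverage, stimulated over vehicle, was above 0 in all 15 in all 4 isolations. It lay between 0.59 and 1.08 in isolation 48 and between 0.95 and 1.48 in isolation 54, both with BMP4. It lay between 1.32 and 1.79 in isolation 75 and between 1.56 and 2.47 in isolation 77, both with BMP6. The first and the last shared exon differed little, at 0.85 and 0.83, 1.01 and 1.36, 1.68 and 1.58, and 2.47 and 2.13 in isolations 48, 54, 75 and 77 in that order. Spsb1 has 2 exons after its first, with ratios of 2.85 and 2.65 in isolation 48, 2.31 and 2.18 in isolation 54, 0.52 and 0.76 in isolation 75, and 0.94 and 0.88 in isolation 77. Arid3a has 8 shared exons at low coverage, and its ratios spread from 0.57 to 3.53 in isolation 48, from 2.32 to 4.71 in isolation 54 and from 1.57 to 4.57 in isolation 77. In isolation 75 only 6 of its exons had coverage in both libraries, with ratios from 0.83 to 3.10. Every measurable such exon of the 3 genes was higher in the stimulated library of its isolation. The ratios spread less along Gse1, where isolation 77 spread most, than along Arid3a.

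**Figure D3:**
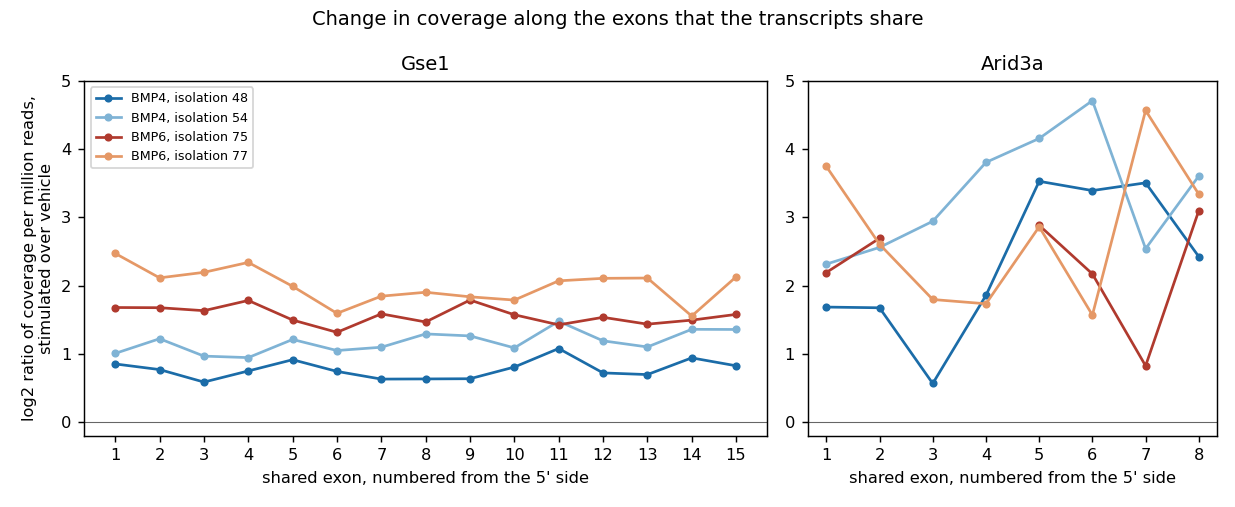
Log2 ratio of coverage scaled to library depth, stimulated over vehicle, at each exon that all annotated transcripts share (vertical), by exon number from the 5' side (horizontal), for Gse1 (left, 15 exons) and Arid3a (right, 8 exons), 1 line an isolation. The Gse1 lines are flat between 0.59 and 2.47, while those of Arid3a scatter between 0.57 and 4.71; a missing point marks an exon without coverage in the vehicle.

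The split among annotated transcripts was steady for Spsb1 and shifted between replicates for Arid3a and Gse1. Spsb1 stood at 91.3% to 98.3% in ENSMUST00000038562.9 in every library, at 19.4 and 30.02 TPM in BMP4, 2.93 and 6.40 in vehicle_a, 5.77 and 7.79 in BMP6, and 3.42 and 4.09 in vehicle_b. Its first exon was covered at 58.9% to 89.0% of the median shared exon in every library. Arid3a changed between ENSMUST00000019708.12 and ENSMUST00000105376.2 from library to library, also within a group, since the first form held 4.87 TPM in BMP4 replicate 2 and 2.87 TPM in BMP4 replicate 1, with 0 and 1.25 TPM for the second form. Another form, ENSMUST00000105377.8, was listed at 0 in every library.

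The split of Gse1 shifted too. ENSMUST00000118136.2 held 46.2 TPM in BMP4 replicate 1 and was listed at 0 in the 7 other libraries. ENSMUST00000034279.16 held 0.43 TPM in BMP4 replicate 1 and 37.5 TPM in BMP4 replicate 2, against 30.5 and 14.0 TPM in vehicle_a; it held 33.5 and 34.0 TPM in BMP6, against 6.29 and 8.39 TPM in vehicle_b. ENSMUST00000120493.8 ranged from 0 to 28.0 TPM without following the groups. The replicates thus disagreed on the form while their gene totals, 56.6 and 65.5 TPM, stood close together. The forms differ by their first exons, and these were thinly covered: the first exon of ENSMUST00000034279.16 at 2.1% to 6.8% of the median shared exon, that of ENSMUST00000120493.8 at 0% to 3.9%, and that of ENSMUST00000118136.2 at 17.1% in BMP4 replicate 1 and at 0% elsewhere.

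A further locus lies over that first exon. The single-exon antisense model 1700016A09Rik, at chr8:121263631-121264465 on the minus strand, covers the first exon of ENSMUST00000118136.2 at chr8:121264168-121264301. It had 0.681 and 3.33 TPM in BMP4 libraries, against 0.673 and 0.600 TPM in vehicle_a libraries. It had 1.72 and 1.95 TPM in BMP6 libraries, against 0.209 and 0.283 TPM in vehicle_b libraries. It was therefore high in 3 of the 4 stimulated libraries and low in BMP4 replicate 1, the library in which the Gse1 exon under it was covered. Its log2 differences of 0.90 for BMP4 and 1.65 for BMP6 passed neither with nor without the block (block adjusted p = 0.309 and 0.612). The TPM were made without an option for strand, so reads of this Gse1 exon and of its antisense model cannot be told apart. Gins2, a DNA replication gene on the minus strand, overlaps the end of Gse1. It had 10.3 and 9.29 TPM in BMP4 libraries, against 9.96 and 8.56 TPM in vehicle_a. In BMP6 libraries it had 12.4 and 10.7 TPM, against 8.35 and 7.24 TPM in vehicle_b. The span of Gins2 takes in most of the last shared exon of Gse1, so the same limit on strand holds for the coverage ratios of that exon.

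**Figure D4:**
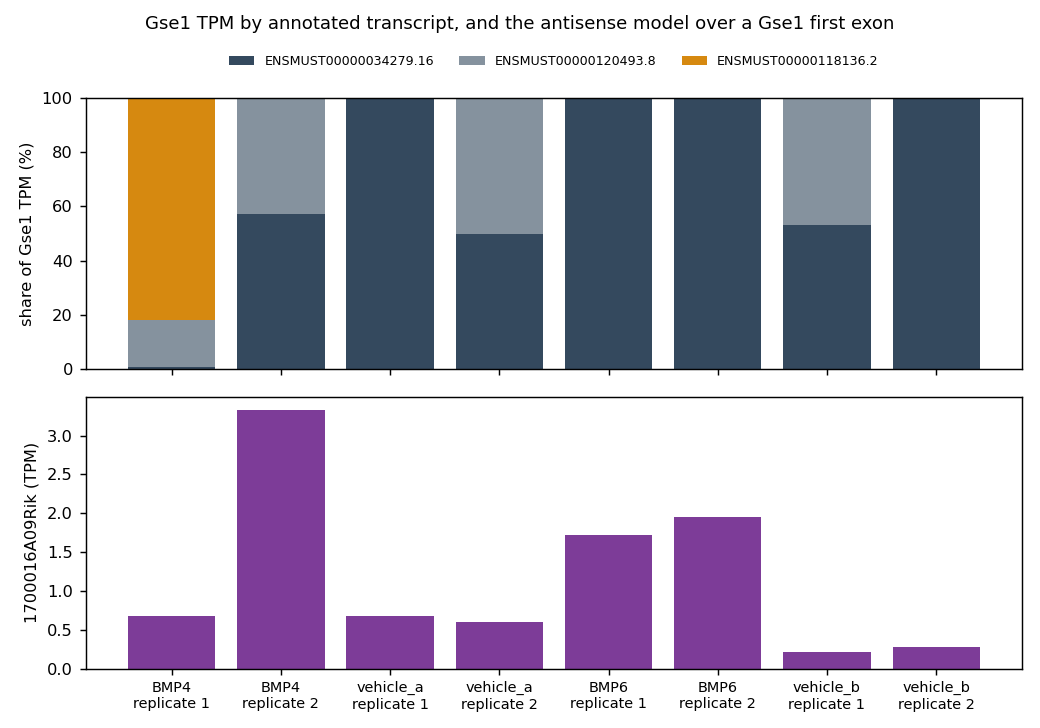
Upper panel, share of Gse1 TPM in percent given to each of 3 annotated transcripts in each library; lower panel, TPM of 1700016A09Rik, the antisense model over the first exon of ENSMUST00000118136.2. BMP4 replicate 1 is the library with ENSMUST00000118136.2, and among stimulated libraries it has the lowest antisense value, 0.681 TPM.

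No neighbour examined was called for either ligand. The 2 nearest tested loci on each side were taken by start position. Around Arid3a they were R3hdm4, Med16, Wdr18 and Grin3b, and around Spsb1 Gm13068, Slc25a33, H6pd and Mir34a. At Gse1 they were A330074K22Rik, 6430548M08Rik, 1700016A09Rik and Gins2. Both 1700016A09Rik and Gins2 overlap Gse1 itself, so no locus wholly beyond its 3' end was examined. Limma called 0 of these 12 for BMP4, where 0.0237% of all tested loci were called, and 0 for BMP6, where 0.0118% were. With the block the count was again 0 of 12 for each ligand, beside 0.633% and 0.148% of all loci. At such shares a count of 0 lies at the background, and nothing is read from it. Next to Arid3a, the Mediator subunit gene Med16 differed by -0.05 after BMP4 and 0.03 after BMP6 on the log2 scale. On the sides of Spsb1, the mitochondrial pyrimidine carrier gene Slc25a33, 122006 bases away, differed by -0.03 and -0.09. H6pd, 24432 bases away, differed by -0.08 and -0.01. Gm13068 differed by 0.72 (SE 0.48) after BMP4 and 0.04 after BMP6, and Mir34a by 0.43 (SE 0.45) and 0.06. The 2 loci before Gse1 lie 260217 and 323141 bases away.

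Genes whose proteins work with these 3 were counted against the share of all tested loci called, which was 0.0237% for BMP4 and 0.0118% for BMP6 without the block and 0.633% and 0.148% with it. At such shares a count of 0 in a short list lies at the background, and nothing about these genes is read from it. Of the ARID family 11 of 14 genes were tested and 0 were called for either ligand; the closest relatives, Arid3b and Arid3c, were too low to test, at most 0.636 and 0.074 TPM. Kdm5c and Arid1a, the most abundant ARID genes, encode a histone demethylase and a chromatin remodelling subunit and differed by -0.08 (SE 0.09) and -0.28 (SE 0.26) after BMP4. Arid5a, named after its values were seen as the ARID gene with the largest difference after BMP4, had 19.9 and 20.8 TPM in BMP4 libraries, against 8.12 and 13.9 TPM in vehicle_a, a log2 difference of 0.90 (SE 0.33, limma adjusted p = 1.00; 0.105 with the block). Of the E2F and RB genes 11 of 11 were tested and 0 were called; E2f4, a repressor of cell cycle genes, differed by -0.20 (SE 0.11) after BMP4 and 0.01 (SE 0.11) after BMP6. E2f8, another repressor of the family, differed by 0.01 (SE 0.40) and -0.08 (SE 0.40). The median log2 differences of the ARID list were -0.08 for BMP4 and 0.05 for BMP6 and those of the E2F list -0.04 and 0.02, beside -0.02 and -0.00 over all tested loci.

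Of the CoREST-HDAC genes, partners of Gse1, 11 of 12 were tested and 0 were called without the block, at the background share. Hdac2 and Kdm1a, the most abundant, differed by 0.04 (SE 0.10) and -0.07 (SE 0.15) after BMP4 and by -0.03 (SE 0.10) and 0.01 (SE 0.15) after BMP6. With the block 1 of them, Rcor2, a paralog of the CoREST scaffold, was lower after BMP4, as were 0.0887% of all loci. It had 9.36 and 7.20 TPM in BMP4 libraries, against 17.1 and 11.8 TPM in vehicle_a libraries. Its log2 difference was -0.75, with an SE of 0.07 and a limma adjusted p of 0.0367 with the block, and an adjusted p of 1.00 without it. After BMP6 it had 6.17 and 5.41 TPM, against 6.25 and 5.74 TPM in vehicle_b libraries, a difference of -0.05. The list's median was -0.15 for BMP4 and 0.01 for BMP6.

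Of the SPSB family and ECS ligase genes 9 of 9 were tested and 0 were called for either ligand, with or without the block, again at the background share. The paralogs of Spsb1 are given by their values. Spsb2 had 18.2 and 40.2 TPM in BMP4 libraries, against 19.5 and 37.6 TPM in vehicle_a. Spsb3 had 3.003 and 2.90 TPM in BMP4 libraries, against 3.09 and 3.42 TPM in vehicle_a. Spsb4 had 2.09 and 1.45 TPM in BMP4 libraries, against 1.81 and 1.78 TPM in vehicle_a. Their log2 differences were -0.00, -0.12 and -0.03 after BMP4 and 0.20, 0.36 and 0.02 after BMP6, in the order Spsb2, Spsb3 and Spsb4. Elob and Rnf7, which encode the Elongin B adaptor and a RING subunit, differed by -0.02 (SE 0.15) and 0.01 (SE 0.17) after BMP4. Of 4 substrate genes 3 were tested and 0 were called, at the background share: Tgfbr2, the type II TGF-beta receptor gene, differed by -0.21 (SE 0.11) after BMP4 and -0.04 (SE 0.11) after BMP6, and Met by 0.23 (SE 0.25) and 0.02 (SE 0.25). Nos2, which encodes the inducible nitric oxide synthase, was too low to test, at most 0.505 TPM.

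Some known SMAD targets rose in the same cells. Of 20 such genes 19 were tested, and limma called 3 higher for BMP4, Skil, Gadd45b and Smad7, beside 0.0177% of all loci, and 0 for BMP6, beside 0.00591%. With the block 11 were higher for BMP4, beside 0.544% of all loci: these 3 and Dlx2, Id1, Id4, Pmepa1, Junb, Smad6, Nog and Hes1. For BMP6 8 were higher with the block, beside 0.136% of all loci: Id1, Snai1, Pmepa1, Junb, Smad6, Gadd45b, Hes1 and Smad7. Their median log2 difference was 1.53 for BMP4 and 1.66 for BMP6, with all 19 above 0 in each, beside -0.02 and -0.00 over all tested loci. The inhibitory Smad7 differed by 3.02 after BMP4 (adjusted p = 0.040) and 2.35 after BMP6 (adjusted p = 0.012 with the block). Over the 6 lists together the 3 genes called for BMP4 became 8 without vehicle_a replicate 1, 2 without vehicle_a replicate 2 or BMP4 replicate 1, and 0 without any of the 5 other libraries, and the 0 called for BMP6 became 6 without either vehicle_a library.

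The loci most like each gene were found by the root mean square difference of the 4 log2 changes within isolations, over 12310 tested loci with a single gene name. Closest to Arid3a were Skil, a SMAD co-repressor gene (0.220 log2 units), Pwwp2b (0.337) and the tight junction gene Cldn4 (0.408). Skil itself had 49.3 and 61.1 TPM in BMP4 libraries, against 14.4 and 12.3 TPM in vehicle_a, and 45.97 and 49.6 TPM in BMP6 libraries, against 16.7 and 17.1 TPM in vehicle_b. Closest to Gse1 were the SMAD target Id3 (0.281), the kinase gene Sik1 (0.316) and the chemokine receptor gene Cxcr4 (0.332). Id3 had 240.4 and 233.2 TPM in BMP4 libraries, against 178.5 and 96.2 TPM in vehicle_a, and 364.7 and 392.4 TPM in BMP6 libraries, against 117.1 and 121.7 TPM in vehicle_b. Closest to Spsb1 were the transcriptional repressor gene Bhlhe40 (0.169), the small Maf gene Mafk (0.292) and the growth factor gene Hbegf (0.316). Bhlhe40 had 83.3 and 82.2 TPM in BMP4 libraries, against 16.5 and 19.9 TPM in vehicle_a, and 40.0 and 54.4 TPM in BMP6 libraries, against 24.1 and 34.6 TPM in vehicle_b. The 3 genes lay further from each other than from these. The nearest of 12310 loci are bound to lie close, and the distances use the changes that chose the genes. Nothing is therefore read from that comparison. Arid3a and Gse1 lay 0.773 apart, Arid3a and Spsb1 0.820, and Gse1 and Spsb1 1.18. The changes are of log2(TPM + 0.5), which understates those of the scarce Arid3a. In plain TPM Arid3a rose 4.93, 10.1, 7.41 and 8.12 times in isolations 48, 54, 75 and 77, more than Skil in each. Its closeness to Skil and its distances from the other members therefore depend on that scale. These are descriptions over 4 isolations, and the stimulated and vehicle libraries of each come from the same cell isolation.

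For scale, a log2 change of at least 1 within both isolations was reached by 60 loci (0.355%) for BMP4 and 43 loci (0.254%) for BMP6, and by 21 loci (0.124%) in all 4 isolations. Arid3a reached it in all 4, Gse1 in isolations 54, 75 and 77 and Spsb1 in isolations 48 and 54; nothing is read from these counts, since the genes were chosen by the same changes.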

How the data were processed

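Poly(A) RNA from 8 cultures was sequenced in strand-specific libraries made from 500 ng (50 nt single-end), as the labels' protocols say. The submitters' processing notes name STAR 2.7.11a, SAMtools 1.17 and GRCm39. The authors made the TPM and FPKM values with StringTie 2.2.1 on a merged annotation, per the file headers, without a strand option. Coverage signal per transcript and exon was deposited in the same output. Since TPM are shares, genes that rise lower the rest.

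Samples were grouped by treatment labels. The joint table matched each library's own in all 55223 loci within 1e-05 TPM. Reads were estimated as coverage times length over 50 nt; they give depth, not counts to test. limma 3.58.1 (R 4.3.3) was fitted to log2(TPM + 0.5) of loci averaging 0.5 TPM or more, with 4 group means and a variance trend; adjusted p values are two-sided Benjamini-Hochberg values at 0.05 over 16908 loci. Labels tie the libraries of an isolation, so the isolation pairs them; deviations of paired libraries correlated at 0.707 (48 and 54) and 0.455 (75 and 77), and a fit with the isolation as a block was the alternative. Replicates come from separate isolations.

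The members, gene lists and tests were chosen with earlier results of these data known. Named genes were the members, the 3 loci most like each, the 2 nearest loci on each side by start position, and the paralogs. From the lists, genes called with or without the block were named, otherwise the 2 most abundant of a list. The fit was tested on simulated data. Alternatives were the pseudocount, the low-value filter, FPKM, rescaling, no trend, the block, each experiment alone and leaving out each library.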

Additional observations from a re-analysis of the deposited data

How the results depend on the processing

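With 2 libraries a group, spread between isolations limits every value, and read number limits Arid3a in vehicle_b. No direction of a BMP change of the 3 genes turned. The pseudocount moved the Arid3a log2 change to 2.63 (0.1) and 1.29 (2) for BMP4 and to 2.56 and 0.84 for BMP6; FPKM gave 1.51 for BMP6. Spsb1 was 2.03 for BMP4 at a pseudocount of 2. Arid3a, with a mean under 2 TPM, was not tested at that filter. Loci called for BMP4 were 8 unfiltered, 2 with FPKM, 107 with the replicate block and 0 with its experiment alone; for BMP6 they were 0 at a pseudocount of 2, 12 unfiltered, 1 at a filter of 2 TPM, 25 with the block and 12 alone. Unfiltered, 1 locus was called for the difference and 2490 between vehicles. List genes called were 12 for BMP4 and 8 for BMP6 with the block, and 0 and 5 with the experiment alone. The block was not possible between vehicles and moved no tested call of the 3 genes.

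Leaving out a library gave for Arid3a 1.90 to 2.34 (BMP4), 1.57 to 1.91 (BMP6), -0.60 to -0.16 (difference) and -0.80 to -0.36 (vehicles). For Gse1 it gave 0.94 to 1.15, 1.47 to 1.95, 0.43 to 0.90 and -1.74 to -1.27. For Spsb1 it gave 1.83 to 2.84, 0.55 to 0.91, -2.11 to -1.10 and -0.68 to 0.33. Loci called were 0 to 16, 0 to 11, 0 to 4 and 5 to 5551, and list genes 0 to 8, 0 to 6 and 0 to 0. With the block, leaving out an isolation, Arid3a gave 1.79 to 2.45, 1.62 to 1.86 and -0.71 to -0.05, Gse1 0.88 to 1.21, 1.46 to 1.96 and 0.41 to 0.91, and Spsb1 2.13 to 2.54, 0.62 to 0.84 and -1.80 to -1.40; loci called without isolation 48, 54, 75 and 77 were 145, 97, 21 and 23 (BMP4), 49, 47, 0 and 2 (BMP6) and 15, 16, 0 and 1 (difference), and list genes 12, 10, 4 and 4, 12, 12, 0 and 0, and 0, 2, 0 and 0. The cause of these shifts was not tested.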
